A study of Mus musculus with 12 samples.

Results

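Control medullary thymic epithelial cells (mTEC) were compared with control cortical thymic epithelial cells (cTEC) in 6 of the 12 libraries of the series, the 3 control mTEC libraries (numbered 1, 2 and 3) and the 3 control cTEC libraries (7, 8 and 9). They were taken by their labelled cell type and genotype, with no measured value used. All were sorted by flow cytometry from the thymus of C57BL6/J mice 2 months of age. The control animals carried floxed alleles of the liver X receptors LXRalpha and LXRbeta and no Cre, so their receptor genes were modified but not exposed to recombinase. The other 6 libraries, 3 of each cell type, had the same floxed alleles together with a FoxN1-Cre, and served here to measure the same cell type difference again, to test whether it depended on genotype, and to estimate the spread. The labels give neither the surface markers of the sort nor whether libraries came from separate or pooled animals. The spread behind each p-value is that of the libraries, and part of it may be technical.

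The thymus trains T cells in its cortex and medulla. Cortical epithelium attracts progenitors, gives them Notch ligand and cytokines, and displays peptides made by its own proteasome and proteases, on which immature T cells are positively selected. Medullary epithelium matures under signals through RANK and CD40, and its Aire-expressing cells transcribe genes of many peripheral tissues, so that T cells reacting to them can be removed or diverted. Some medullary cells take on features of other tissues, among them tuft, keratinised, neuroendocrine, gut, muscle and microfold cells, and are called mimetic cells.

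The control libraries held 11159013, 8881179 and 7388891 counts in mTEC and 5992644, 6180444 and 7229359 in cTEC. Levels are CPM, counts per 1000000 counts, scaled by TMM factors. Across genes, the correlation of log CPM was 0.982 to 0.990 within a control cell type and 0.858 to 0.867 between them. A low level of counts spread over genes taken here as background was higher in the cTEC libraries. Whether these genes are silent in thymic epithelium was not tested. The 1679 olfactory and vomeronasal receptor genes, which serve chemosensation in the nose, summed to 113, 142 and 233 CPM (library totals, unscaled) in mTEC and 556, 514 and 445 in cTEC, or 0.0675 to 0.139 per gene against 0.265 to 0.331. The predicted gene Gm10800 stood at 1029, 1796 and 3899.8 CPM in mTEC and 11106, 12630.00 and 12576 CPM in cTEC. The part of this background in the results was not tested beyond a fit with the receptor sum as a covariate. Levels under 1 CPM in cTEC lie near it, so folds over such levels have no firm floor.

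Most of the transcriptome differed between the cell types. Of 17268 genes tested, 10231 (59.2%) passed an adjusted p of 0.05 in edgeR's quasi-likelihood test, 5052 of them higher in mTEC (29.3%) and 5179 lower (30%). All folds are mTEC over cTEC. At 2-fold or more, 3248 genes were higher in mTEC (18.8%) and 1943 lower (11.3%). At 8-fold or more the counts were 786 and 142, and at 16-fold or more 322 and 41. The large differences were thus mostly gains in mTEC. Libraries of the cell types did not overlap for 69.3% of the genes tested. The median log2 fold change of all genes was -0.05. In these bulk samples, more or fewer cells of a type and more or less RNA per cell cannot be told apart.

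**Figure D1:**
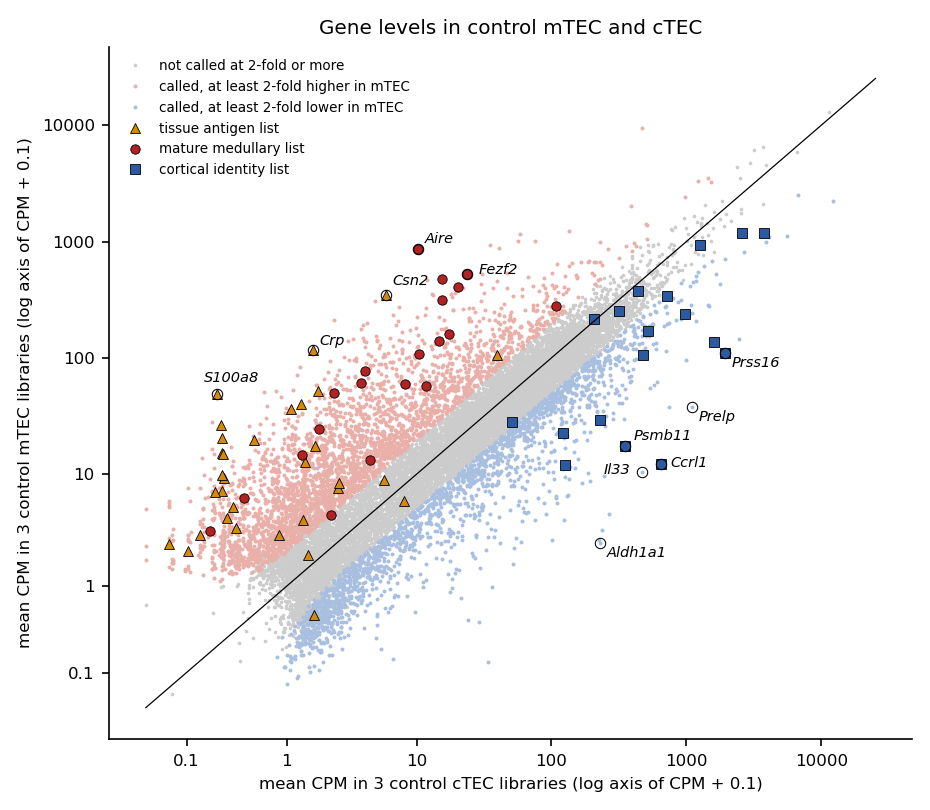
Mean CPM of each tested gene in the 3 control mTEC libraries (vertical) against the 3 control cTEC libraries (horizontal), both on a log axis of CPM + 0.1, with equal levels on the diagonal. Tissue antigens (triangles) and mature medullary genes (circles) lie mostly above the diagonal, with Aire at a mean of 864 against 10.3 CPM, while cortical genes (squares) lie on or below it.

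Genes with the largest gains in mTEC had shorter transcripts, and fewer of them had CpG-rich promoters, than tested genes as a whole. The median longest transcript was 1565 bases for the 322 genes at least 16-fold higher, 3029 for the 41 at least 16-fold lower and 3260 for all tested genes with a known length. RefSeq promoters on GRCm38.p6 (250 bases before to 50 after the start) were called CpG-rich when at least 50% of bases were G or C and the observed CG count was at least 0.6 of that expected. Such promoters belonged to 40 of 246 coding genes at least 16-fold higher (16.3%), 10 of 30 at least 16-fold lower (33.3%) and 7502 of 12494 tested coding genes (60%). Among genes with at least 5 CPM in either cell type the shares were 18.3%, 33.3% and 67.1%. TATAAA, searched on both strands, was in 29.3% of promoters of genes at least 16-fold higher, 13.3% of those at least 16-fold lower and 8.64% of all. An entry was at hand for 81.7%, 83.3% and 81.6% of the coding genes of these sets. For genes at least 2-fold higher or lower the description was void, because only 77.6% and 79.6% had one. The 16-fold sets were chosen after these shares were seen.

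The 150 bases just before the start are printed for 5 genes so that their CG pairs can be compared, chosen as tissue antigens (S100a8 and Csn2), the regulator Aire, and the neighbouring proteasome genes Psmb11 and Psmb5, the former far higher in cTEC and the latter at like levels in both. Sequences run 5′ to 3′ towards the start, from RefSeq on GRCm38.p6, a later build than the mm9 of the counts, with each CG in capitals.
S100a8, chr3:90668921-90669070, plus strand: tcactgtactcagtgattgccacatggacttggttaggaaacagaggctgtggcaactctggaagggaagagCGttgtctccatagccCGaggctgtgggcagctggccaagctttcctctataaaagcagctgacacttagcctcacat
Csn2, chr5:87699426-87699575, minus strand: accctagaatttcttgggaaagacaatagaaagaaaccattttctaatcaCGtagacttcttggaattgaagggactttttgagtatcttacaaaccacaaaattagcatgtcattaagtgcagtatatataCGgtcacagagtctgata
Aire, chr10:78043611-78043760, minus strand: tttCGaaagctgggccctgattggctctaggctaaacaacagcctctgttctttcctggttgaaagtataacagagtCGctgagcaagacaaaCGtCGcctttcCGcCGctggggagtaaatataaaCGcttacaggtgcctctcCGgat
Psmb11, chr14:54625160-54625309, plus strand: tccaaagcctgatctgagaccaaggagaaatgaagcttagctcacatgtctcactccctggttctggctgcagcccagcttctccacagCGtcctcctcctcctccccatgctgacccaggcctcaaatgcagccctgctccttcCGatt
Psmb5, chr14:54617996-54618145, minus strand: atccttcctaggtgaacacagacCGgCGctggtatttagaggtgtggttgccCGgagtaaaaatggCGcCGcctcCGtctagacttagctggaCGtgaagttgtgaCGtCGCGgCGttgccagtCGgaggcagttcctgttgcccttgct
There were 2 CG pairs in each of the windows of S100a8, Csn2 and Psmb11, 8 in that of Aire and 12 in that of Psmb5. The G and C contents of Psmb11 and Psmb5 were 56.7% and 57.3%. Among these 5 the number did not follow the direction of the difference, since Aire, with 8, was higher in mTEC and Psmb11, with 2, lower.

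The labels held against the markers of both cell types. Of 18 cortical identity genes tested, 15 were lower in mTEC, none was higher and 3 did not pass (median log2 fold change -1.85). Of 20 mature medullary genes, 19 were higher, none was lower and 1 did not pass (median 3.74). List counts here and below stand beside 29.3% of all genes tested higher in mTEC and 30% lower.

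**Figure D2:**
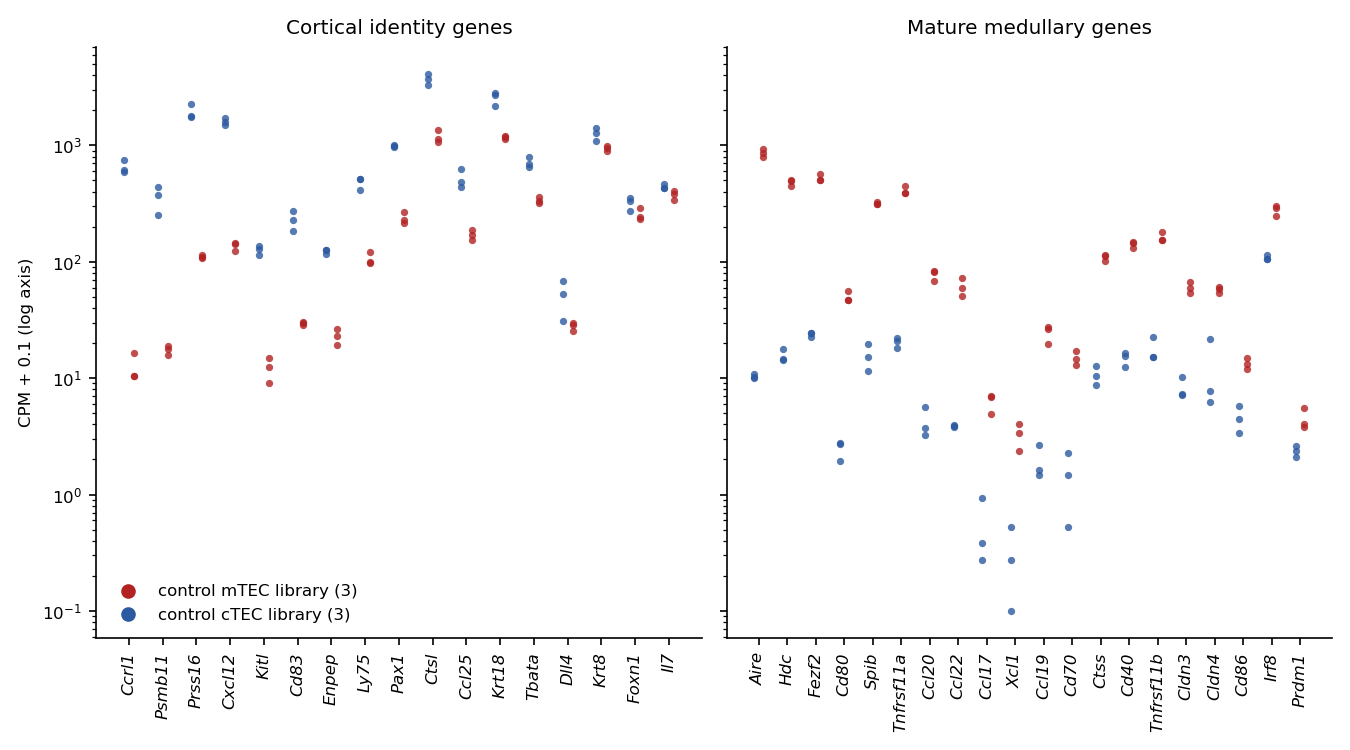
CPM + 0.1 on a log axis of the cortical identity and mature medullary genes reported here in the 3 control mTEC libraries (red) and the 3 control cTEC libraries (blue), ordered by fold change. Ccrl1 and Aire lie farthest apart, and the blue and red points of Foxn1 overlap.

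Psmb11 encodes the beta5t subunit of the cortical proteasome. It was at 19, 17.7 and 15.8 CPM in mTEC and 254, 435 and 372 CPM in cTEC, every cTEC library far above every mTEC library (log2 fold change -4.33, SE 0.34, adjusted p = 2.2e-09, edgeR). Prss16, a thymus-specific serine protease, was at 108, 113 and 109 CPM in mTEC and 1773, 2271 and 1758 CPM in cTEC (-4.13, SE 0.28). The scavenger receptor Ccrl1, also named Ackr4, which removes chemokines that guide thymocytes, had the largest difference of the list, at 10.2, 16.4 and 10.3 against 586, 749.9 and 618 CPM (-5.72, SE 0.17, adjusted p = 9.0e-15). Cxcl12, a chemokine that draws progenitors, and the surface molecules Cd83 and Ly75 followed, with log2 fold changes of -3.54, -2.95 and -2.17. Kitl, a growth factor for early thymocytes, was at 12.4, 14.8 and 9.02 against 114, 136 and 129 CPM (-3.38).

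Other cortical genes kept high levels in mTEC. Ctsl, a lysosomal protease of class II peptide loading, averaged 1188 ± 157 CPM in mTEC and 3726 ± 393 CPM in cTEC (SD, n = 3 each, -1.65). Pax1, a factor of pharyngeal pouch development, averaged 237 ± 26.8 and 985 ± 13.8 CPM (-2.05). The Notch ligand Dll4, which commits progenitors to the T lineage, was at 28.4, 25.5 and 29.9 CPM in mTEC and 31.1, 68.8 and 53.1 CPM in cTEC. Its lowest cTEC library, number 7, was close to the mTEC libraries, and its call (-0.87, SE 0.27, adjusted p = 0.0103) was lost with the robust fit, with DESeq2 and without cTEC library 8 (adjusted p from 1.8e-05 to 0.11 over the alternatives). Krt8 differed little (-0.41, adjusted p = 0.0405), and its call was lost in 7 of 17 alternatives. Foxn1, the master factor of thymic epithelium, was at 291, 232 and 240.2 CPM in mTEC and 271, 354 and 329.7 CPM in cTEC, with overlapping libraries (adjusted p = 0.431). The cytokine Il7 (adjusted p = 0.168) did not pass either, at a mean of 373 CPM in mTEC against 439.8 CPM in cTEC.

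The 15 largest excesses in cTEC were in Aldh1a1, Prss23, Scn1a, Serpinf1, Ccrl1, Ntf3, Il33, Slc2a12, Srpx, Tmeff2, Col8a2, Prelp, Cys1, Gpm6b and Ogn. Aldh1a1, an enzyme that makes retinoic acid, was at 3.41, 2.41 and 1.57 CPM in mTEC and 291, 202 and 197 CPM in cTEC (-6.48, SE 0.22, adjusted p = 4.0e-14). The alarmin cytokine Il33 was at 9.07, 12.4 and 9.8 against 360.5, 498 and 545 CPM (-5.49, SE 0.20). Scn1a, a voltage-gated sodium channel, was at 3.59, 2.3 and 3.92 against 229.9, 235 and 248 CPM (-6.18, SE 0.17). Libraries of the cell types do not overlap for these 15 genes by the rule that chose them. Ntf3, a neurotrophin, averaged 0.47 ± 0.0462 CPM in mTEC and 24.1 ± 2.05 CPM in cTEC. Its mTEC level lay above the 0.0675 to 0.139 CPM per receptor gene there but rested on 13 counts in all.

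Extracellular matrix divided between the cell types. Of 51 collagen and matrix genes, 25 were lower in mTEC, 14 higher and 12 did not pass (median -0.50), against 30% and 29.3% of all genes. The cTEC side held small leucine-rich proteoglycans that bind collagen: Dcn at 165, 137 and 136 against 2738, 2336 and 2326 CPM (-4.08), Prelp at 47.2, 32.3 and 33.8 against 1376, 1008 and 936 CPM (-4.87), and Fmod at 46.3, 33 and 34.1 against 841, 829.6 and 566 CPM (-4.29). Every cTEC library exceeded every mTEC library for all 3, where 69.3% of all genes tested had no overlap and Prelp was chosen by that rule. The mTEC side held Col6a2, a chain of the microfibrillar collagen VI, at 1211, 939.8 and 831 against 267, 231 and 192 CPM (2.11, SE 0.19). Fbn1, the main microfibril protein, was also higher in mTEC, at 170.1, 132 and 126 against 28.7, 28.8 and 31.3 CPM (2.27). Basement membrane collagen IV was split by chain. Col4a5 and Col4a6 were lower in mTEC (-2.51 and -3.86), and Col4a1 and Col4a2 higher (0.84 and 0.71). Fibroblast and pericyte markers, some of them collagens, summed to 2521 to 2933 CPM (library totals, unscaled) in mTEC and 902 to 1059.5 CPM in cTEC. The list was mixed, with 8 of 18 higher in mTEC, 4 lower and 6 that did not pass. The pericyte markers Rgs5 and Pdgfrb were higher (4.71 and 2.81), and the fibroblast markers Lum and Col1a2 lower (-2.0 and -1.73). The part of such cells in the matrix values was not tested.

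Among medullary regulators, Aire, the transcriptional activator of tissue antigens, had the widest gap. It was at 795, 862 and 935 CPM in mTEC and 10.0, 9.92 and 10.8 CPM in cTEC (6.39, SE 0.27, adjusted p = 4.1e-13), and its cTEC level of about 10 CPM lay above the background per receptor gene. Which cells of the cTEC sort gave this level was not tested. Fezf2, which drives a separate set of tissue antigens, was at 499, 502 and 567 against 22.6, 24.4 and 24.6 CPM (4.45, SE 0.17). Spib, an Ets factor induced by RANK, was at 326, 316 and 311 against 15, 19.5 and 11.4 CPM (4.38). Irf8 (1.37) differed less, at 291, 248 and 302 against 106, 105 and 114 CPM, still without overlap. Prdm1, a repressor of late differentiation, was at 3.95, 3.72 and 5.49 against 2.25, 2.52 and 2 CPM and did not pass (adjusted p = 0.0561). Basal and immature medullary genes were mixed, with 5 of 14 higher in mTEC, 6 lower and 3 that did not pass (median -0.16). Of these, the glycoprotein Pdpn was at 42, 42.9 and 36.9 against 113, 100.4 and 88.8 CPM (-1.30).

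Genes for proteins that work with Aire were mixed. Of 20 Aire partner genes, 10 were higher in mTEC, 3 lower and 7 did not pass (median 0.29), against 29.3% and 30% of all genes. Sirt1, a deacetylase that activates Aire, was at 235, 186 and 222 CPM in mTEC and 39.2, 34.5 and 41.8 CPM in cTEC (2.47, SE 0.15, adjusted p = 6.0e-11). Top2a, a topoisomerase of dividing cells, was higher by 2.21 on the log2 scale and the DNA-dependent kinase Prkdc by 0.86. Hexim1, an inhibitor of elongation factor P-TEFb, was lower in mTEC at 8.44, 10.6 and 10.5 against 21.8, 24.2 and 21.8 CPM (-1.21), as was the DNA end-binding subunit Xrcc5 (-0.77). The P-TEFb subunits Cdk9 and Ccnt1 did not pass (-0.12 and -0.07, adjusted p = 0.325 and 0.67).

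Receptors and mediators of the RANK and CD40 pathway were mostly higher in mTEC: of 24 genes, 18 were higher, 3 lower and 3 did not pass (median 0.81). Tnfrsf11a, which encodes RANK, was at 445, 389.6 and 392 CPM in mTEC and 18.2, 22 and 20.6 CPM in cTEC (4.33, SE 0.15, adjusted p = 3.5e-14). Cd40 was at 130.2, 145 and 149 against 12.3, 15.5 and 16.3 CPM (3.26). Tnfrsf11b, the decoy receptor that binds RANK ligand, was at 154, 153 and 178 against 15.2, 22.4 and 15 CPM (3.21), higher in the same bulk libraries as its signalling counterpart. The noncanonical subunits Nfkb2 and Relb were higher (2.06 and 1.77). The canonical subunit gene Nfkb1 went the other way, at 96.5, 84.9 and 95 against 319.9, 379.7 and 398 CPM (-1.99, SE 0.13, adjusted p = 9.0e-11), and Rela did not pass (-0.06, adjusted p = 0.655). Ltbr, the lymphotoxin receptor, was lower in mTEC (-0.74).

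Tissue antigens, products of peripheral organs, were the list with the largest median gain. Of 32 tested, 29 were higher in mTEC, 1 lower and 2 did not pass (median log2 fold change 4.37), against 29.3% of all genes higher. S100a8, a calcium-binding protein of neutrophils, was at 48.2, 48.7 and 51.2 CPM in mTEC and 0, 0 and 0.714 CPM in cTEC (7.45, SE 0.62, adjusted p = 4.8e-09). Its fold rests on a few counts in 1 cTEC library, and over the alternatives it ran from 6.52 to 11.51. Csn2, a milk casein, was at 364, 341 and 346 against 3.63, 8.07 and 5.85 CPM (5.90, SE 0.22). Crp, an acute-phase protein of liver, was at 121, 116 and 111 against 0.692, 2.02 and 2.14 CPM (6.12, SE 0.21). For both, cTEC libraries lay above the background per receptor gene, and which cells of the sort gave these levels was not tested.

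Peptide hormones were among the tissue antigens. The gut hormone Pyy was at 26.7, 28.9 and 23.5 CPM in mTEC and 0.346, 0 and 0.428 CPM in cTEC (6.54), the neuropeptide Gal at 20.1, 20.6 and 21.2 against 0, 0.505 and 0.285 CPM (6.18), and Calca, which encodes calcitonin, at 47.1, 55 and 53.1 against 1.56, 1.68 and 2.14 CPM (4.82). The islet hormones Ins2, Gcg, Iapp and Ppy averaged 7.1, 15.2, 40.4 and 9.25 CPM in mTEC. In cTEC they averaged 0.265, 0.265, 1.31 and 0.28 CPM, so that 3 of the 4 stood near the mean receptor gene there. Rbp3, a photoreceptor protein, was the member lower in mTEC (-1.65, adjusted p = 0.0298), at 0.539, 0.109 and 0.915 against 2.42, 1.68 and 0.856 CPM with overlapping libraries and a call lost in 7 of 15 alternatives (adjusted p up to 0.596). The milk gene Wap did not pass (0.34, adjusted p = 0.605).

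The 15 largest gains in mTEC were in S100a8, Ang4, Pyy, Fgf21, Aire, Fam25c, Hbb-y, Scgb1a1, Pgc, Mt4, Sprr1b, Gal, Tac2, Crp and Fabp6. Ang4, an antimicrobial ribonuclease of Paneth cells, was at 23.7, 28.3 and 31.8 CPM in mTEC and 0.173, 0.168 and 0.285 CPM in cTEC (6.92, SE 0.34). Fgf21, a liver hormone, was at 215, 199 and 220.4 against 2.25, 2.52 and 2.28 CPM (6.48, SE 0.18, adjusted p = 5.2e-15), with a spread between libraries far smaller than the gap. The stomach pepsinogen Pgc was at 56.4, 45.7 and 49.9 against 0.692, 0.841 and 0.428 CPM (6.27). Fam25c, the embryonic globin Hbb-y, the metallothionein Mt4 and the envelope protein Sprr1b each had 1 count in all cTEC libraries together, and the airway secretoglobin Scgb1a1 had 3. Their depth-scaled ratios were 107, 103, 98.0, 95.3 and 85.0, with 95% counting intervals of 18.9 to 4240, 18.3 to 4107, 17.3 to 3895, 16.8 to 3789 and 28.9 to 414. These cover counting error alone. By counts, Fcgbp, a mucus protein of goblet cells singled out after its values were seen, was second to Cd74 in mTEC at 11774, 7929.7 and 8385 CPM, against 469, 455 and 482 CPM in cTEC (4.32, SE 0.24).

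Each list of mimetic cell genes had more members higher than lower in mTEC, where 29.3% of all genes were higher and 30% lower. Of 24 tuft cell genes, which serve taste-like chemosensing, 22 were higher, 1 lower and 1 did not pass (median 1.29). The taste G protein Gnat3 was at 21.1, 31 and 36.2 CPM in mTEC and 4.67, 5.55 and 6.14 CPM in cTEC (2.41), the channel Trpm5 at 72.7, 72.3 and 86.5 against 21.4, 21.2 and 17.1 CPM (1.96), and the tuft factor Pou2f3 averaged 31.4 ± 3.39 against 12.7 ± 2.13 CPM (1.30). All 3 lay above the background per receptor gene in cTEC too, and which cells of the sort gave these levels was not tested. The prostaglandin synthase Ptgs1 was lower in mTEC (-0.98, adjusted p = 1.6e-05), and the cytokine Il25 did not pass (0.26, adjusted p = 0.694).

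Of 27 keratinised cell genes, 26 were higher in mTEC and 1 lower (median 3.17). Dsg1a, a desmosomal cadherin of upper epidermis, was at 232, 175 and 189.7 CPM in mTEC and 4.32, 4.88 and 3.57 CPM in cTEC (5.55, SE 0.22, adjusted p = 1.7e-13). The cornified envelope protein Lor was at 19.6, 13.2 and 17 against 1.56, 1.51 and 0.714 CPM (3.73), and Grhl3, a factor of barrier formation, at 28.7, 24.5 and 24.7 against 2.59, 2.69 and 3.28 CPM (3.17). The lower member, the filaggrin relative Flg2, was at 0.18, 0.438 and 0.915 against 2.59, 2.02 and 1.86 CPM, and its call (-2.12, adjusted p = 0.00905) was lost without mTEC library 1 and with the background covariate (adjusted p up to 0.764). Its mean of 2.16 CPM in cTEC compares with 0.511 CPM in mTEC, where filaggrin itself, Flg, was higher (4.92).

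Gut and liver genes followed, with 18 of 19 higher in mTEC and 1 that did not pass (median 3.21). The apolipoprotein Apoa4 was at 52.5, 54.7 and 60.6 CPM in mTEC and 1.56, 3.03 and 2 CPM in cTEC (4.66). Cdhr1, a photoreceptor cadherin counted with its gut relatives, was at 332, 289.7 and 307 against 4.5, 4.88 and 5.28 CPM (5.98, SE 0.15). Hnf4g did not pass (0.37, adjusted p = 0.0791), whereas its relative Hnf4a was higher (1.47). Of 17 neuroendocrine genes, 11 were higher, 1 lower and 5 did not pass (median 1.25). Insm1, the main factor of these cells, was at 202, 162 and 215 against 5.53, 3.03 and 3.28 CPM (5.62, SE 0.23), and Isl1 was the lower member, at 82.2, 89.7 and 78.1 against 212, 234 and 215 CPM (-1.40).

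Of 16 skeletal muscle genes, 13 were higher in mTEC and 3 did not pass (median 2.59). The muscle factor Myog was at 6.11, 8.86 and 11.4 CPM in mTEC and 0.346, 0.336 and 0.571 CPM in cTEC (4.30), and the intermediate filament Des at 65.6, 65.2 and 59.1 against 5.71, 6.22 and 6.42 CPM (3.37). Of 13 microfold cell genes, 11 were higher and 2 did not pass (median 1.76), with the chemokine Ccl20 at 67.6, 81.7 and 83.6 against 3.63, 5.55 and 3.14 CPM (4.25). Spib, Tnfrsf11b and Ccl20 stand on both the microfold and the mature medullary lists.

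Ciliated cell genes were the least uniform of the mimetic lists: of 15, 8 were higher in mTEC, 2 lower and 5 did not pass (median 0.61). Foxj1, the factor of motile cilia, was at 28.9, 32.7 and 33.3 CPM in mTEC and 5.01, 3.53 and 4.42 CPM in cTEC (2.87), while the p53 relative Trp73, needed for multiciliated cells, was lower at 11.9, 10.5 and 10.5 against 66.6, 51.3 and 44 CPM (-2.29, SE 0.16). Ccdc39, an axoneme protein, was lower by a smaller margin (-0.90, adjusted p = 0.00335), a call lost with length and GC offsets (adjusted p = 0.0697, the highest over the alternatives). Of 8 ionocyte genes, 5 were higher, 1 lower and 2 did not pass (median 1.71). The factor Foxi1 was at 11.6, 5.69 and 10.3 against 0.692, 1.18 and 0.428 CPM (3.59) and the chloride channel Cftr at 15.7, 16.8 and 23.7 against 2.59, 3.36 and 2.43 CPM (2.74). The proton pump subunit Atp6v1b1 was lower (-2.16, adjusted p = 0.00282), under 1 CPM in mTEC, and lost its call with the background covariate (adjusted p = 0.0682, the highest over the alternatives).

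**Figure D3:**
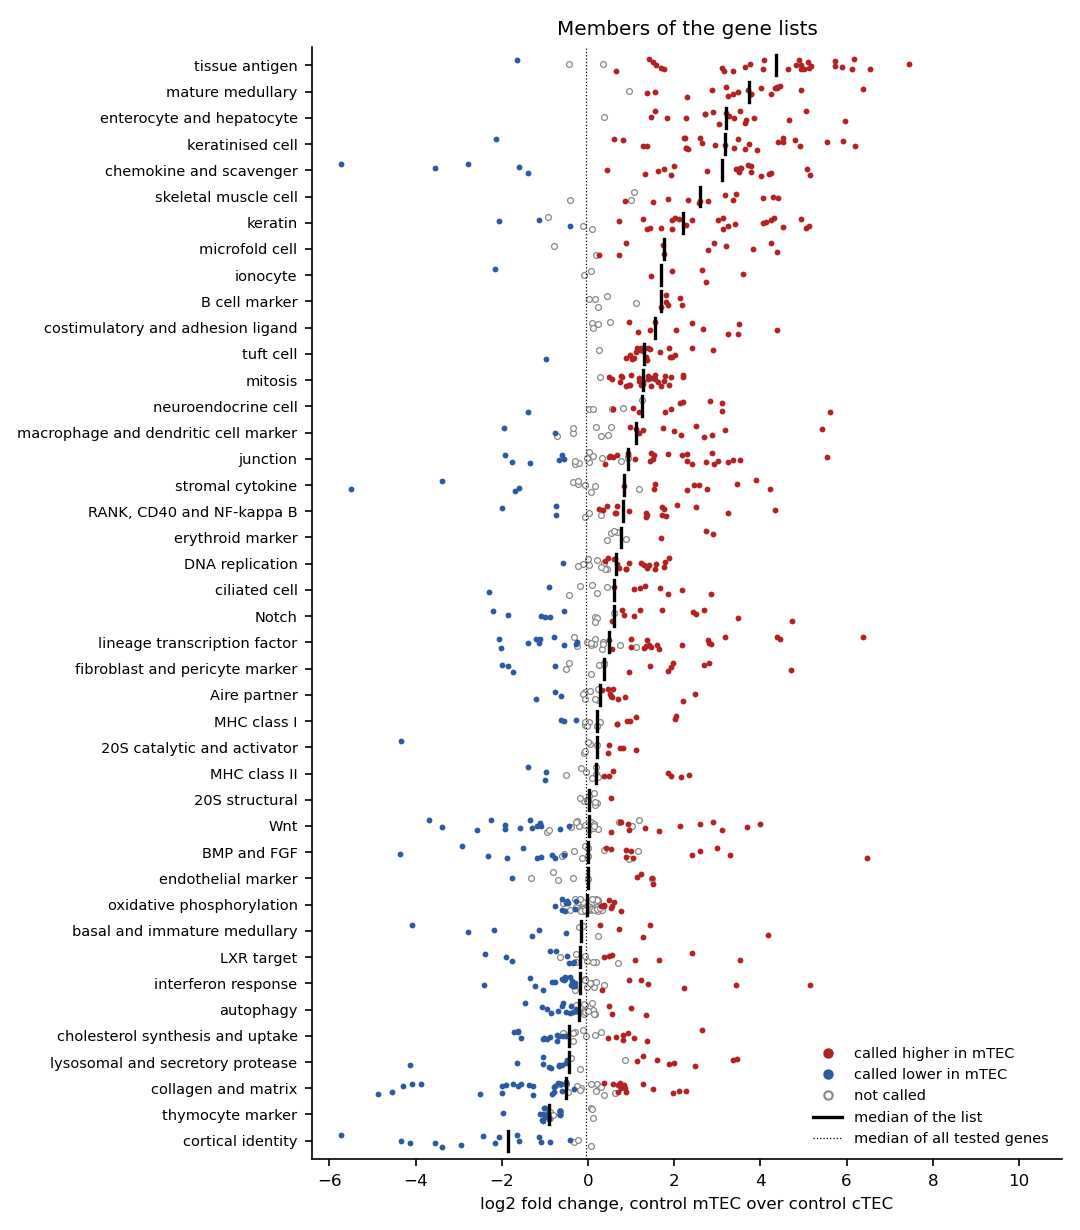
Log2 fold change, mTEC over cTEC in control libraries, of each tested member of the 42 gene lists, with black bars at list medians and a dotted line at the median of all tested genes. Tissue antigens have the highest median (4.37) and cortical identity genes the lowest (-1.85), and most points of the mimetic lists are red (called higher in mTEC).

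Chemokine genes all differed between the cell types: of 24 chemokine and scavenger genes, 19 were higher in mTEC and 5 lower (median 3.10). The 5 lower were Ccrl1, Cxcl12, the scavenger Cxcr7 (Ackr3, -2.77), Ccl25, which attracts progenitors through CCR9, and Cx3cl1 (-1.40). Ccl25 was at 154, 168 and 188 CPM in mTEC and 441, 629.8 and 482 CPM in cTEC (-1.61). Cxcl9, an interferon-induced ligand of CXCR3, was at 82.6, 75.3 and 70.2 CPM in mTEC and 2.07, 2.02 and 2.28 CPM in cTEC (5.15). Cxcl10, which binds the same receptor, was at 399, 386 and 417 against 35.3, 40.2 and 35.1 CPM (3.44). Ccl19, a CCR7 ligand that draws thymocytes into the medulla, was at 19.7, 27.6 and 26.5 against 1.38, 1.51 and 2.57 CPM (3.71), and the CCR4 ligands Ccl22 and Ccl17 were higher by 4.01 and 3.79. Xcl1, which attracts dendritic cells, was at 2.25, 3.28 and 3.92 against 0.173, 0 and 0.428 CPM (3.78). The other medullary CCR7 ligand, Ccl21a, has near-identical copies and too few counts in this table to be tested.

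Costimulatory and adhesion ligands were higher in mTEC in 11 of 15 cases, with 4 that did not pass (median 1.56). Cd80, a ligand of CD28, was at 46.9, 46.6 and 55.9 CPM in mTEC and 2.59, 2.69 and 1.86 CPM in cTEC (4.39, SE 0.29), and its relative Cd86 at 11.9, 13.1 and 14.9 against 3.28, 4.37 and 5.71 CPM (1.56). Icosl was at 268, 254 and 288 against 54.5, 35.3 and 38.4 CPM (2.66). The inhibitory ligands of PD-1 parted. Pdcd1lg2 was higher (2.42), and Cd274 did not pass at means of 186 and 174 CPM (adjusted p = 0.648). The adhesion molecules Icam1 and Vcam1 did not pass either (0.24 and 0.11, adjusted p = 0.0647 and 0.468). Macrophage and dendritic cell markers summed to 575 to 722 CPM in mTEC and 161 to 198 CPM in cTEC, and their part in the chemokine and costimulatory values was not tested.

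Of 21 stromal cytokines, 10 were higher in mTEC, 4 lower and 7 did not pass (median 0.84). Il23a, a subunit of interleukin 23, was at 70.5, 70.5 and 77.6 CPM in mTEC and 3.8, 4.04 and 3.85 CPM in cTEC (4.22, SE 0.15, adjusted p = 5.2e-14). Il12a (3.89) and the lymphotoxins Lta and Ltb (3.46 and 2.46) were also higher. The lower ones were Il33, Kitl and both ligands of the macrophage growth factor receptor, Csf1 and Il34. Csf1 was at 166, 149 and 151 against 558, 447 and 499 CPM (-1.69), and Il34 averaged 7.83 against 23.8 CPM (-1.61).

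Of 21 Notch genes, 11 were higher in mTEC, 6 lower and 4 did not pass (median 0.60), and ligands and receptors divided. Among ligands, Dll1 was at 43, 44.9 and 40.6 CPM in mTEC and 219, 188 and 188 CPM in cTEC (-2.21), Jag2 at 189, 195 and 186 against 671, 793 and 594 CPM (-1.85), and Dll4 was lower as above, while Jag1 did not pass (0.21, adjusted p = 0.167). Dll3, an atypical ligand that acts within its own cell, was the ligand higher in mTEC, at 27.9, 27 and 27.6 against 0.864, 1.35 and 0.856 CPM (4.74). The receptors Notch1, Notch2 and Notch3 were higher (1.21, 1.71 and 2.70), as were the targets Nrarp (2.43) and Heyl (2.50), whereas the targets Hey1 and Hey2 were lower (-1.09 and -1.01) and Hes1 did not pass (adjusted p = 0.34).

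Of 43 Wnt genes, 13 were higher in mTEC, 14 lower and 16 did not pass (median 0.02), shares near the 29.3% and 30% of all genes. Wnt3a was at 1.53, 1.31 and 1.05 CPM in mTEC and 17.6, 18.8 and 15.3 CPM in cTEC (-3.69), and Wnt6 at 10.4, 10.5 and 9.8 against 53.9, 52.1 and 40.0 CPM (-2.24). Wnt10b was the reverse, at 12, 13.6 and 16.3 against 0.864, 0.841 and 0.856 CPM (4.00). The secreted inhibitors differed by member too, with Sfrp5, Dkk1 and the Dickkopf receptor Kremen2 higher (3.70, 2.14 and 2.60) and Sfrp4 and Dkk3 lower (-3.40 and -1.19). Axin2, a common target, was lower in mTEC (-0.66).

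Of 31 BMP and FGF genes, 11 were higher in mTEC, 10 lower and 10 did not pass (median 0.00), again near the shares of all genes. Bmp4, which sustains Foxn1, was at 0.808, 1.42 and 2.22 CPM in mTEC and 28, 29.9 and 30.7 CPM in cTEC (-4.37, SE 0.27), while Bmp2 and Bmp3 were higher (2.60 and 3.30). Fgf1 was at 21.8, 19.3 and 17 against 155, 136 and 151 CPM (-2.92), and the feedback inhibitor Spry1 at 28.3, 36.4 and 32.7 against 161, 158 and 166 CPM (-2.32). Of the receptors, Fgfr1 and Fgfr2 were lower in mTEC (-1.87 and -0.55) and Fgfr3 and Fgfr4 higher (0.99 and 3.00).

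Among transcription factors of epithelial lineages, 19 of 41 were higher in mTEC, 10 lower and 12 did not pass (median 0.48). Ehf, an epithelial Ets factor, was at 229.7, 202 and 225 CPM in mTEC and 31.1, 32.8 and 29.8 CPM in cTEC (2.81). Nfib was the reverse, at 127, 117 and 104 against 456, 484 and 457 CPM (-2.01). Trp63, the p53 relative of basal epithelium, was lower in mTEC at means of 614 against 1351 CPM (-1.14), as were the pouch factors Hoxa3 and Eya1 (-1.12 and -0.56).

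Core proteasome genes were mostly not called. Of 11 proteasome catalytic and activator genes, Psmb11 was lower in mTEC, 5 were higher and 5 did not pass. The higher ones included a catalytic subunit not named here, whose call was lost with the background covariate. Psmb5, whose product fills the place that the Psmb11 product takes in the cortical proteasome, was at 35, 38.9 and 36.9 CPM in mTEC and 30.1, 42.2 and 34.7 CPM in cTEC (0.05, adjusted p = 0.786), and Psmb6 at 150.2, 193 and 177 CPM in mTEC and 159, 174 and 185 CPM in cTEC (0.01, adjusted p = 0.967). With length and GC offsets both were lower in mTEC (-0.45 and -0.37, adjusted p = 0.00357 and 0.00849). The immunoproteasome genes Psmb8 and Psmb10 did not pass (0.20 and -0.07, adjusted p = 0.175 and 0.704). Per kilobase of longest transcript, Psmb8 and Psmb5 averaged 114 and 41.1 CPM in mTEC, and 99.1 and 39.7 CPM in cTEC, where Psmb11 averaged 83.2. The activator subunits Psme1 and Psme2 were higher in mTEC (0.74 and 0.81), as was Psme4 (1.11). Of 11 structural subunits of the 20S core, Psma6 was higher (0.54, adjusted p = 0.00139, lost with the background covariate at 0.0925, the highest over the alternatives) and 10 did not pass.

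Lysosomal and secretory proteases divided between the cell types. Of 22 genes, 11 were lower in mTEC, 8 higher and 3 did not pass (median -0.43), against 30% and 29.3% of all genes. Beside Prss16 and Ctsl, the cathepsins Ctsd and Ctsb were lower (-0.90 and -0.67). Ctss, the cathepsin that trims the class II chaperone in other antigen-presenting cells, was at 102, 114 and 113 CPM in mTEC and 8.64, 10.3 and 12.6 CPM in cTEC (3.37, SE 0.15, adjusted p = 7.0e-13). Ctsh was at 159, 187 and 198 against 15.9, 15.1 and 18.6 CPM (3.45), and Ctsc and Ctsz were higher by 2.00 and 1.88.

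MHC class II genes were abundant in both cell types. There, 7 of 17 were higher in mTEC, 3 lower and 7 did not pass (median 0.19), against 29.3% and 30% of all genes. Per kilobase, Cd74, the class II chaperone, averaged 9126 CPM in mTEC and 8067 in cTEC, and H2-Ab1, a class II chain, 4878 and 5439.6. Neither passed (adjusted p = 0.321 and 0.381). The peptide editors were opposed. H2-DMa, part of the editor that frees the groove, was at 153, 165 and 148 CPM in mTEC and 371, 433 and 419.9 CPM in cTEC (-1.39), and its partner H2-DMb1 at 107, 128 and 117 against 213, 237 and 243 CPM (-0.98). H2-Oa, part of the inhibitor of that editor, was at 166, 186 and 185 CPM in mTEC and 40.8, 55.2 and 45.4 CPM in cTEC (1.92). Its partner H2-Ob was at 59.5, 66.7 and 64.3 against 14.2, 20.9 and 17.3 CPM (1.86), so that the editor was lower and its inhibitor higher in mTEC. Ifi30, a lysosomal thiol reductase, was higher too (2.35). The class II transactivator Ciita did not pass (0.23, adjusted p = 0.135).

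Of 17 MHC class I genes, 7 were higher in mTEC, 3 lower and 7 did not pass (median 0.22). B2m, the light chain, was at 6183, 6226 and 6025 CPM in mTEC and 3179, 3338 and 2918 CPM in cTEC (0.97). Nlrc5, the class I transactivator, was at 143, 117 and 127 against 34.9, 32.8 and 27.1 CPM (2.04, SE 0.13). H2-K1 was higher (0.67) and H2-D1 did not pass (0.22, adjusted p = 0.163). H2-Q6 and H2-Q7 were higher (1.10 and 2.01), but these near-identical genes share reads and their counts are uncertain. The peptide transporter genes Tap1 and Tap2 did not pass (adjusted p = 0.127 and 0.663).

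Interferon response genes, Cxcl9 and Cxcl10 among them, were mixed. Of 34, 16 were lower in mTEC, 7 higher and 11 did not pass (median -0.19), against 30% lower of all genes. Isg20, an antiviral exonuclease, was at 21.3, 25.9 and 20.5 CPM in mTEC and 94.2, 143 and 125 CPM in cTEC (-2.42), and Ifit1 and Ifit3 were lower by log2 fold changes of -1.34 and -1.23. Oasl1 was the reverse, at 61, 61.9 and 62.7 against 12.4, 14.5 and 12.8 CPM (2.22). The count of lower genes fell to 10 without mTEC library 3, without cTEC library 7 or with no filter on low counts.

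Cell division genes were higher in mTEC. Of 30 mitosis genes, 29 were higher, none was lower and 1 did not pass (median 1.28). Ccna2, the cyclin of S and G2 phases, was at 62.6, 55.9 and 54 CPM in mTEC and 11.2, 10.9 and 14.8 CPM in cTEC (2.21, SE 0.18), Cdk1 at 42, 46.7 and 42.5 against 10.4, 12.4 and 11.6 CPM (1.93), and the proliferation marker Mki67 at 69.8, 62.8 and 58.7 against 16.4, 18.2 and 17.1 CPM (1.89). No library overlapped for these 3, as for 69.3% of all genes tested. Of 28 DNA replication genes, 18 were higher, 1 lower and 9 did not pass (median 0.65). The helicase subunits Mcm3 and Mcm5 were higher (1.31 and 1.41) while Mcm4 did not pass (0.01, adjusted p = 0.958).

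Autophagy, which feeds cytoplasmic peptides to class II molecules, had more members lower than higher in mTEC. Of 30 genes, 13 were lower in mTEC, 4 higher and 13 did not pass (median -0.21), against 30% and 29.3% of all genes. The lysosomal membrane protein Lamp2 was at 754, 698 and 662 CPM in mTEC and 1959.7, 1961 and 1913 CPM in cTEC (-1.46, SE 0.14, adjusted p = 2.9e-08). The autophagosome proteins Map1lc3b and Map1lc3a were opposed, at -1.06 and 1.00. Atg5 and Becn1 did not pass (adjusted p = 0.127 and 0.198). The count of lower genes was 7 with no filter on low counts and 8 without cTEC library 7.

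Of 24 target genes of the liver X receptors, 9 were lower in mTEC, 7 higher and 8 did not pass (median -0.18), near the 30% and 29.3% of all genes, and the lower ones numbered 5 with no filter on low counts. Apoe, the cholesterol carrier, was at 1130.2, 1101 and 1037 CPM in mTEC and 4422, 3743 and 4065 CPM in cTEC (-1.90), and the phospholipid transfer protein Pltp at 290.3, 289 and 255 against 1285, 1654 and 1464 CPM (-2.40). The desaturase Scd1 was the reverse, at 158, 149 and 187 against 9.51, 16.3 and 16.7 CPM (3.52, SE 0.17), while its relative Scd2 did not pass (0.11, adjusted p = 0.512). Srebf1, a regulator of lipid synthesis, was at 132, 121 and 146 against 279.6, 462 and 601 CPM (-1.75), with a wide spread in cTEC. Of 30 cholesterol synthesis and uptake genes, 13 were lower, 8 higher and 9 did not pass (median -0.43), led by Sc5d at 79.2, 85.9 and 82.1 against 244, 283 and 289 CPM (-1.72). Of 57 oxidative phosphorylation genes, 40 did not pass, 8 were higher and 9 lower (median -0.03), with 27 lower under length and GC offsets, 16 with the background covariate and 5 with no filter.

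Most keratins and junction genes were higher in mTEC. Of 30 keratins, 24 were higher in mTEC, 3 lower and 3 did not pass (median 2.19). The basal keratin Krt5 was at 3737, 3449.8 and 3366 CPM in mTEC and 1512, 1365 and 1452 CPM in cTEC (1.29), and Krt17, a keratin of glands and hair follicles, at 3293, 3311 and 3363 against 1506, 1089 and 1057 CPM (1.45). The gut keratin Krt20 was at 58.1, 56.2 and 58.3 against 3.11, 4.54 and 2.71 CPM (4.06). The lower ones were the simple-epithelial Krt8, Krt18 and Krt19, with Krt19 at 59.7, 56.3 and 61.3 against 301, 222 and 218 CPM (-2.06). Of 41 junction genes, 25 were higher, 6 lower and 10 did not pass (median 0.93). The tight junction proteins Tjp3, Cldn7 and Marveld2 were higher (3.53, 3.38 and 3.26), and Cldn3, a marker of medullary cells, was at 53.9, 59.4 and 66.4 CPM in mTEC and 7.26, 10.1 and 6.99 CPM in cTEC (2.88). Its relative Cldn4 was at 57.9, 54.3 and 61 against 7.61, 21.7 and 6.14 CPM (2.30), with 1 cTEC library above the other 2. The desmosomal Dsc3 and the claudin Cldn8 were lower (-1.34 and -1.92).

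Markers of other thymic cells differed between the cell types in some lists and were mixed in others, and their part in the results was not tested. Of 21 thymocyte markers, 13 were lower in mTEC, none was higher and 8 did not pass (median -0.91). Their summed level was 275 to 345 CPM in mTEC and 316 to 507 CPM in cTEC, ranges that overlap. Lck, a T cell kinase, was at 22.3, 27.8 and 25.1 CPM in mTEC and 48.8, 38 and 70.5 CPM in cTEC (-1.07), and Cd3e averaged 7.89 against 12.2 CPM. Of 21 macrophage and dendritic cell markers, 12 were higher, 2 lower and 7 did not pass (median 1.11), summing to 575 to 722 CPM in mTEC and 161 to 198 CPM in cTEC. List sums throughout are over library totals, not scaled by TMM, and include members below the low-count filter. The lysozymes Lyz2 and Lyz1, which share reads, made up most of the macrophage and dendritic cell sum in mTEC. Their TMM-scaled means were 249 and 145 CPM, and every other marker of the list averaged less. The dendritic cell factor Zbtb46 averaged 75.6 against 13.3 CPM (2.51), the macrophage receptor Mrc1 24.5 against 3.76 CPM (2.69) and the macrophage marker Emr1 11.4 against 1.49 CPM (2.88), all called. These are from the higher side only, and the 2 lower members are not named. Itgax, Siglech and Cx3cr1 averaged 0.793, 1.3 and 1.32 CPM in mTEC and did not pass.

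Of 11 B cell markers, 6 were higher in mTEC and 5 did not pass (median 1.70), with sums of 101 to 231 CPM in mTEC and 49.9 to 166 CPM in cTEC that overlap. Cd79a, a subunit of the B cell receptor, was at 2.07, 1.64 and 2.22 CPM in mTEC and 0.346, 0.505 and 0.714 CPM in cTEC (1.86, adjusted p = 0.00859). Of 11 endothelial markers, 4 were higher, 1 lower and 6 did not pass (median 0.00), at sums of 73.1 to 84.3 against 35.1 to 52.8 CPM, and Cdh5 and Sox17 had too few counts to be tested. The 4 higher were Tek, Vwf, Plvap and Esam (1.51, 1.49, 1.23 and 1.14), of which Vwf, the clotting factor stored in endothelium, averaged 21.7 against 7.69 CPM. Of 18 fibroblast and pericyte markers, 8 were higher, 4 lower and 6 did not pass (median 0.38), at sums of 2521 to 2933 against 902 to 1059.5 CPM. Rgs5, Pdgfrb, Lum and Col1a2 averaged 349, 30.7, 13.4 and 9.0 CPM in mTEC, so most of the mTEC sum lay in other members. The pericyte marker Rgs5 was at 364, 344 and 339 against 12.4, 11.9 and 15.4 CPM (4.71, SE 0.24) and Pdgfrb at 31.6, 28.4 and 32.1 against 3.46, 5.72 and 4 CPM (2.81), while the fibroblast markers Lum and Col1a2 were lower (-2.0 and -1.73) and Pdgfra did not pass (0.38, adjusted p = 0.282). Of 8 erythroid markers, 3 were higher and 5 did not pass (median 0.78), at sums of 34.6 to 52.6 against 7.68 to 13.4 CPM, and the adult globin Hbb-b1 averaged 3.9 and 2.61 CPM. The 3 higher were the membrane protein Epb4.2 at means of 19.9 against 2.63 CPM (2.91), the haem enzyme Alas2 at 8.24 against 1.18 CPM (2.74) and the anion exchanger Slc4a1 (1.69).

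Some genes called in the same direction lay side by side. Among 15699 tested coding genes placed in RefSeq order, 19.7% were called at least 2-fold higher and 10% at least 2-fold lower. Runs of 4 or more neighbours called in the same direction numbered 82 for genes higher in mTEC, with 428 genes, and 10 for genes lower, with 43 genes. There were 8 runs of at least 8 genes, all higher in mTEC, and the longest run of lower genes had 6. A larger share of genes called makes runs more frequent and longer, and the number expected from these shares was not worked out. The longest, on chromosome 7, held 17 kallikrein protease genes from Klk8 to Klk1, with log2 fold changes from 2.16 to 5.81 and a median of 3.72. Keratin genes formed runs of 11 on chromosome 15 (Krt5 to Krt78, median 3.13) and of 10 on chromosome 11 (Krt222 to Krt35, median 2.40). Other runs were 10 genes of the epidermal differentiation complex on chromosome 3 with Sprr1b and Ivl (median 4.03), 9 on chromosome 4 with 8 Skint genes (median 4.19), 9 on chromosome 7 with 8 pregnancy-specific glycoprotein genes (median 1.95) and 8 on chromosome 17 with the Dcpp genes (median 3.56). Members of such families resemble each other, and the way reads matching several places were counted is not given, so single members are uncertain. The remaining run, 9 genes from Fgf21 to Car11 on chromosome 7 (median 2.81), held the fucosyltransferase genes Fut1, Fut2 and Sec1 together with genes of other families, such as Izumo1 and Rasip1.

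The number of genes detected depended on the level counted as detection. Thinned to 5992644 counts, the depth of the smallest control library, mTEC libraries had 22744, 23492 and 24700 genes with at least 1 count and cTEC libraries 26212, 26076 and 26008 (exact two-sided permutation p = 0.1, the smallest that 3 against 3 allows). Counting genes expected to reach 5 counts in 1000000 reversed the order, at 12466, 12634 and 12816 genes in mTEC against 11539 to 11614 in cTEC (exact permutation p = 0.1). The cTEC libraries also had a count in 1213 to 1263 of the 1679 chemosensory receptor genes, against 625 to 851 in mTEC. Of 38 receptor genes that passed the low-count filter, 22 were lower in mTEC and 1 higher, against 30% and 29.3% of all genes. Such genes can pass through the libraries where their counts are high, so the filter may in part set this split. The 100 most abundant genes held 17.2% to 17.5% of counts in mTEC and 17.6% to 18% in cTEC (exact permutation p = 0.1). These were among 15 measures compared in this way, and the Benjamini-Hochberg adjusted p of each one named was 0.125.

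**Figure D4:**
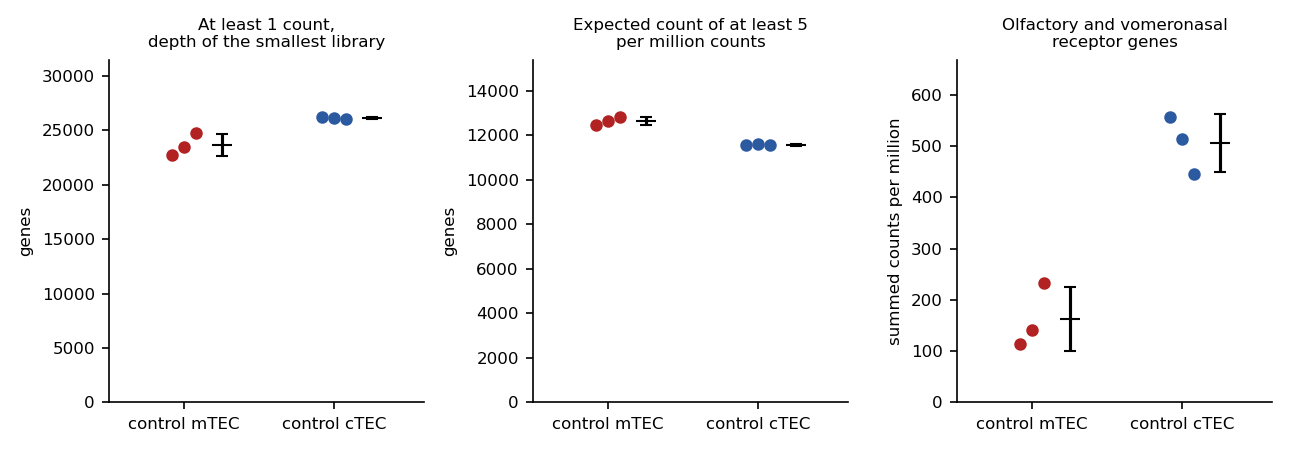
Each point is 1 control library, with mean ± SD (n = 3) beside the points: genes with at least 1 count after thinning to the smallest library (left), genes with an expected count of at least 5 in 1000000 counts (middle), and summed CPM of 1679 olfactory and vomeronasal receptor genes (right). The cTEC libraries are higher on the left and the right and lower in the middle, without overlap.

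The 6 Cre libraries, whose levels do not enter the control difference though they share its estimate of spread, gave the same cell type difference for most genes. In them 49.6% of genes were called, 25.1% higher in mTEC and 24.5% lower. Of the 3248 genes at least 2-fold higher in control mTEC, 98.7% had the same sign there and 88% were called higher. Of the 1943 at least 2-fold lower, 93.8% had the same sign and 67.8% were called lower. All 41 genes at least 16-fold lower were called again, and 318 of the 322 at least 16-fold higher. Aire, with a log2 fold change of 6.39 in controls, had 6.90 in Cre libraries, and Psmb11 -4.33 and -4.94 (interaction adjusted p = 0.57 and 0.563). A difference between genotypes in the cell type effect was called for 692 genes (4.01%).

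**Figure D5:**
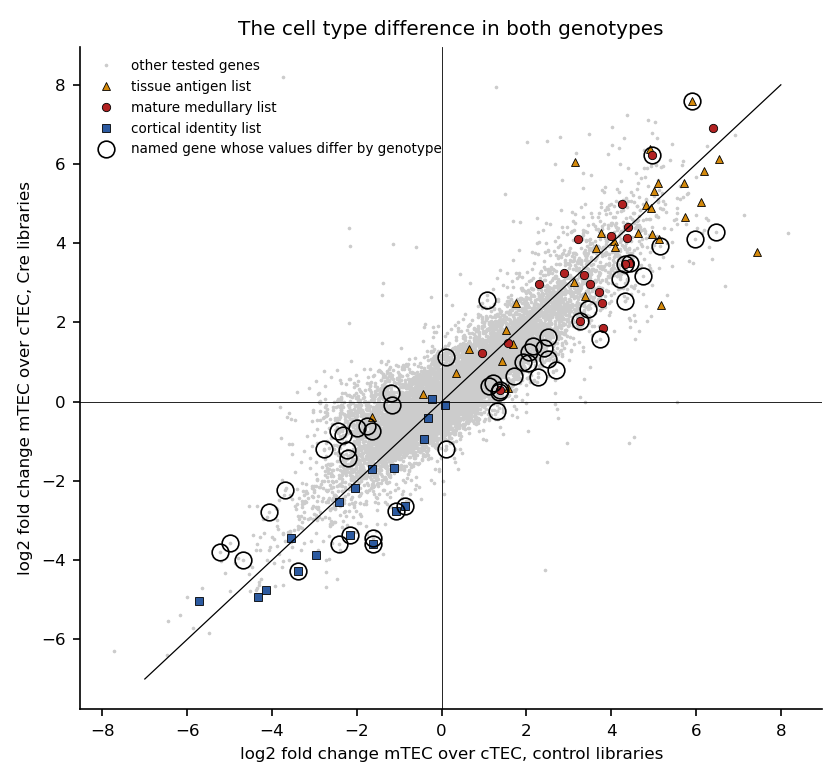
Log2 fold change of mTEC over cTEC for each tested gene in the 6 control libraries (horizontal) and the 6 Cre libraries (vertical), with equal values on the diagonal. Aire lies near the diagonal at 6.39 and 6.90, and the circled genes, such as Fgf21 at 6.48 and 4.28, are named genes whose values differed between genotypes.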

How the data were processed

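Bulk RNA-seq libraries were made from FACS-sorted cells with a SMARTer low-input kit that does not mark strand, per the labels' protocols, so overlapping and antisense genes cannot be told apart. The authors deposited raw counts per gene. STAR, HTSeq, edgeR and mm9 stand in the submitters' processing notes, and no source used here gives their versions or settings. Control totals of 5992644 to 11159013 counts put 1 count near 0.1 to 0.2 CPM. Genes passing edgeR's filterByExpr (17268 of 31332) were scaled by TMM and fitted with the quasi-likelihood test (edgeR 4.0.16, R 4.3.3) in 1 model of 4 groups over all 12 libraries with 8 residual degrees of freedom. The contrast was control mTEC minus control cTEC, two-sided, with Benjamini-Hochberg adjustment over all tested genes and a threshold of 0.05. Values in parentheses after levels are log2 fold changes, some with an SE. This SE is an approximation, the absolute log2 fold change divided by the square root of the test's F statistic. The script was tested on simulated data with known changes.

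Named were all members of the cortical identity and mature medullary lists, Psmb5 to Psmb10, the 15 largest called folds in each direction (at least 5 CPM in the higher group, no overlap, a proper gene name), in every other list up to 4 members of smallest p and up to 2 of opposite sign, the 10 most abundant genes per kilobase of each cell type, and list genes whose difference depended on genotype. Members of runs of neighbouring genes were named only for runs of at least 8, and other list members named beyond this rule were chosen after their values were seen. Some list members are counted but not reported here by name. The members and all 42 lists were chosen with earlier results of these data known. Alternatives covered scaling, filters, length and GC offsets, leaving out each control library, other tests (DESeq2 1.42.0, limma 3.58.1) and, added after seeing the data, a covariate for the receptor gene background.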

Additional observations from a re-analysis of the deposited data

Results flagged for a closer look

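For 53 named genes the mTEC over cTEC difference itself differed between control and Cre libraries (edgeR interaction contrast, adjusted p under 0.05), against 4.01% of all genes tested, a share the choice of some members by this test raises. In 41 of them the difference was smaller in size in the Cre libraries. Values are given as the log2 fold change in controls, in Cre libraries, and the control value minus the Cre value.

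Among cortical genes, Ccl25 stood at -1.61 in controls and -3.60 in Cre libraries, a difference of 2.0 (adjusted p = 0.0022). Dll4 stood at -0.87 and -2.64 (difference 1.77, adjusted p = 0.0137), so the small control gap of this Notch ligand was wider in the Cre libraries. The same direction held for Tbata (-1.08 and -2.77, difference 1.69), Ly75 (-2.17 and -3.36, difference 1.19) and Kitl (-3.38 and -4.28, difference 0.9). Of other genes higher in cTEC, the gap was narrower in Cre libraries for Slc2a12 (-5.23 and -3.79, difference -1.44), Tmeff2 (-5.0 and -3.58, difference -1.42), Dcn (-4.08 and -2.78, difference -1.29) and Gpm6b (-4.69 and -3.99, difference -0.697).

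Some medullary regulators had smaller gains in the Cre libraries, while Aire (6.39 and 6.90, adjusted p = 0.57) and Spib (4.38 and 4.13, adjusted p = 0.612) did not pass. Cd40 went from 3.26 to 2.03 (difference 1.23, adjusted p = 0.00944), Tnfrsf11a from 4.33 to 3.47 (difference 0.859), the kinase gene Map3k14 from 1.35 to 0.24 (difference 1.11), Irf8 from 1.37 to 0.30 (difference 1.07) and Fezf2 from 4.45 to 3.49 (difference 0.957). Hdc, the histamine-making enzyme, had a larger gain, from 4.95 to 6.23 (difference -1.28). Fgf21 went from 6.48 to 4.28 (difference 2.2, adjusted p = 3.6e-04) and Cdhr1 from 5.98 to 4.10 (difference 1.87, adjusted p = 1.7e-04).

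Notch3 went from 2.70 to 0.79 (difference 1.91) and Fbn1 from 2.27 to 0.62 (difference 1.65). The sterol exporter Abcg1 went from 1.08 to 2.57 (difference -1.49). Dkk3 went from -1.19 to 0.23 (difference -1.41) and Fgf9 from -1.17 to -0.08 (difference -1.1). Of the tissue antigens, Csn2 had a larger gain in the Cre libraries (5.90 and 7.59, difference -1.7, adjusted p = 0.0213). Gains were smaller there for the mucus protein Fcgbp (4.32 and 2.54, difference 1.78), the cornified envelope protein Lor (3.73 and 1.58, difference 2.16) and the fucosyltransferase Fut1 (4.21 and 3.09, difference 1.12), and for the dynein chain Dnahc9 (1.32 and -0.24, difference 1.55) the sign differed. Among immune genes, gains were smaller for Cxcl9 (5.15 and 3.94, difference 1.2), Cxcl10 (3.44 and 2.34, difference 1.1), Pdcd1lg2 (2.42 and 1.35, difference 1.06), Nfkb2 (2.06 and 1.24, difference 0.816) and Nlrc5 (2.04 and 0.98, difference 1.05). The same held for H2-Oa (1.92 and 1.00, difference 0.921), H2-Eb2 (2.16 and 1.41, difference 0.748), Psme4 (1.11 and 0.39, difference 0.719) and Zbtb46 (2.51 and 1.64, difference 0.869). The PD-1 ligand Cd274 (0.10 and -1.21, difference 1.3) and the exonuclease Isg20 (-2.42 and -3.59, difference 1.17) had lower values in the Cre libraries, as did the cytokine Il34 (-1.61 and -3.44, difference 1.83). In the Notch and Wnt families, values were nearer 0 in the Cre libraries for Notch1 (1.21 and 0.46, difference 0.749), Notch2 (1.71 and 0.65, difference 1.06), Heyl (2.50 and 1.08, difference 1.42), Dll3 (4.74 and 3.17, difference 1.57), Dll1 (-2.21 and -1.41, difference -0.797), Wnt3a (-3.69 and -2.24, difference -1.45) and Wnt6 (-2.24 and -1.23, difference -1.01). Genes higher in cTEC whose gap was narrower there were Cxcr7 (-2.77 and -1.20, difference -1.58), Lum (-2.0 and -0.65, difference -1.35), Srebf1 (-1.75 and -0.62, difference -1.13) and Sc4mol (-1.63 and -0.74, difference -0.89). The desaturase Scd2, which did not pass in controls, went from 0.11 to 1.14 (difference -1.03). The background genes Gm10800 (-2.43 and -0.75, difference -1.69) and Gm10801 (-2.33 and -0.85, difference -1.48) also had narrower gaps.

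The sums of chemosensory receptor genes ran from 293 to 535 CPM in Cre mTEC and from 163 to 1025 in Cre cTEC, ranges that overlap where those of the controls do not, and the part of this background in these differences was not tested.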

How the results depend on the processing

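The alternatives were summarised for the 247 genes that the naming rule chose. Of the 231 called among these, 218 kept direction and call in every alternative, and 10 uncalled ones passed in at least 1. Genes named beyond the rule, Cd274, Il34, Scd2 and Heyl among them, are not in these counts. Counts ran from 4539 to 5934 genes higher in mTEC and from 4103 to 5939 lower, and leaving out 1 control library gave 4539 to 4978 higher, 4321 to 4630 lower, 3113 to 3324 at least 2-fold higher and 1693 to 2021 at least 2-fold lower. The 1943 genes at least 2-fold lower became 1211 with at least 5 CPM in 3 libraries, where 13237 genes were tested, and 968 in a test against 2-fold. The median of all genes moved between -0.12 with no filter and 0.02 with library totals alone. For 33 of 42 lists the count stayed within 1.5 times.

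With at least 5 CPM in 3 libraries, genes higher in mTEC were 5 of 11 ciliated, 2 of 2 ionocyte and 2 of 5 B cell genes, and no endothelial gene was lower (0 of 5 tested). Endothelial genes lower in mTEC numbered 2 with no filter and with voom, and 3 in the 6 control libraries alone. Structural 20S genes higher in mTEC numbered 2 with library totals, no filter, at least 5 CPM, length and GC offsets and voom, and 0 with the background covariate, with a range of 1 to 2 on leaving out a library. With no filter, genes lower in mTEC were 10 interferon, 7 autophagy, 5 LXR target and 5 oxidative phosphorylation genes, and the last were 27 with length and GC offsets and 16 with the background covariate. Leaving out a library gave 10 to 14 interferon and 8 to 12 autophagy genes. Length and GC offsets reversed Psmb5 (-0.45), Psmb6 (-0.37) and Cox6a1 (-0.13). The cause of these changes was not tested.

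Genes detected, mTEC minus cTEC, were -2453 at the depth of the smallest library, from -2981 to -2003 on leaving out a library, -604 at 1000000 counts, -69 for an expected count of at least 5, and -174 for coding genes without receptors. Among genes expected to reach 5 counts in 1000000 the difference was 1066, and 1078 for coding genes. The share of the 100 most abundant genes, mTEC minus cTEC, was -0.501 percentage points, from -0.65 to -0.413 on leaving out a library, 0.337 for the 10 most abundant and -1.98 for the 1000. No paired analysis was possible because the libraries carry numbers that no 2 groups share.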

Other observations

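Genes called at least 2-fold different with a mean under 5 CPM in both cell types numbered 864 higher and 603 lower in mTEC, and those at 5 CPM or more 2384 and 1340. Protein-coding genes were 95.3% of the genes at least 2-fold higher, 80.8% of those at least 2-fold lower and 90.9% of all tested. In the 6 control libraries, protein-coding genes held 97.3% to 97.8% of counts in mTEC and 96.4% to 96.6% in cTEC.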
